A study of Mus musculus with 6 samples.

Results

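The stefin A gene cluster is a run of small genes on mouse chromosome 16 that encode inhibitors of cysteine proteases, and 6 of its genes are described here: Stfa1, Stfa2, Stfa3, Stfa2l1, BC100530 and Gm5483. They were found by symbol among the 31053 genes of the files, and the set was chosen on measured values of these same data, namely their unique molecular identifiers (UMIs) and detection in keratinocytes and neutrophils of the 3 groups. Their levels in those cells are therefore given as a description with no p, and where a fit across all genes also counts them, nothing about them is read from that count. The data are single-cell RNA-seq of dorsal skin from female C57BL/6J mice aged 8 to 10 weeks, with 2 libraries per group, each made from skin pooled over several mice. The Sham group was left untreated. The IMQ group carried a psoriasis-like inflammation raised by 62.5 mg of a 5% imiquimod cream each day for 4 days on shaved back skin. The IMQ+SHP099 group had the same cream and, over the same 4 days, 10 mg/kg of SHP099 by gavage each day, an allosteric inhibitor of the phosphatase SHP2. Since each library pools mice, the spread between 2 libraries is the only replicate error that could be measured.

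Stefins are single-domain cystatins without a signal peptide, so they act inside the cell, where they bind papain-like proteases such as the cathepsins tightly and reversibly. A wedge formed by the protein's start and 2 hairpin loops fills the active site cleft of the protease. In the human genome the family's A branch is the single gene CSTA, whose product is a cornified envelope protein of skin, whereas the mouse carries a set of duplicated genes. Stefin A proteins are known from both the epidermis and from neutrophils.

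The 6 genes lay on chromosome 16 of GRCm38 between positions 36156811 and 36455392, a stretch of 298.6 kb that also holds other stefin genes. Stfa2l1 (ENSMUSG00000059657, chr16:36156811-36161953), Gm5483 (ENSMUSG00000079597, chr16:36184212-36188111) and Stfa1 (ENSMUSG00000071562, chr16:36276951-36285373) are on the plus strand. BC100530 (ENSMUSG00000071561, chr16:36359382-36367748), Stfa2 (ENSMUSG00000022902, chr16:36403992-36408457) and Stfa3 (ENSMUSG00000054905, chr16:36450537-36455392) are on the minus strand. All are annotated as protein coding in GENCODE M21, with 3 exons in the transcript of longest coding length. The stretch below encodes the first hairpin loop of the inhibitor, the most conserved part of a cystatin, and lies within the second coding exon of each gene. It is shown because it shows where members differ and which are near copies, with the 5 codons of the loop motif in capitals.
Stfa2l1: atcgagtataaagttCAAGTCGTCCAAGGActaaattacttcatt
Stfa2: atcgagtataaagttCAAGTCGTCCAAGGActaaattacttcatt
Gm5483: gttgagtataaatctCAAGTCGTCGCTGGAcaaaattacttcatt
Stfa1: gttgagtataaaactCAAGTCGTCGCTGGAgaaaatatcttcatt
BC100530: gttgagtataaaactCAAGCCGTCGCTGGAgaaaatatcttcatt
Stfa3: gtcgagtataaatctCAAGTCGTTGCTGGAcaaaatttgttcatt
These stretches run from 36160000 to 36160044 in Stfa2l1, from 36405133 to 36405177 in Stfa2, from 36186418 to 36186462 in Gm5483, from 36280520 to 36280564 in Stfa1, from 36364215 to 36364259 in BC100530 and from 36452154 to 36452198 in Stfa3. Stfa2l1 and Stfa2 were identical over this stretch. Over the whole coding sequence the 15 pairs of members were 56.2% to 96.4% identical, with Stfa2 and Stfa2l1 the closest pair. Such likeness limits how reads are assigned: of the 90-base windows within the last 400 bases of the transcript, 28.3% of those of BC100530 also occurred in BC117090 or Stfa1, 16.1% of those of Gm5483 in 2010005H15Rik, 5.8% of those of Stfa1 in BC100530, 2.6% of those of Stfa2 and of Stfa2l1 in each other, and none of those of Stfa3 in another gene. BC100530 and Gm5483 levels are the least certain on this account.

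RefSeq promoter windows were compared as well, to show what the members share near the start of their genes. RefSeq promoter windows of 300 bases (GRCm38.p6) were found for all 6 genes, and all 6 held the letters ACCTTTAAAACCC on the sense strand, the longest run they share and a TATA-like element, which occurred on either strand in 9 of 32851 promoters (0.027%). The stretch before this element is printed with TTTAAA and AGATAA in capitals.
BC100530: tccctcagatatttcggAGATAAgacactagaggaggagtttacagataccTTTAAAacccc
Stfa1: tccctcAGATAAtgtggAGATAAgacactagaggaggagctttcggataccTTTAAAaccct
Stfa3: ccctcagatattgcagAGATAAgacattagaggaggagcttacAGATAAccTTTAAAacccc
Stfa2: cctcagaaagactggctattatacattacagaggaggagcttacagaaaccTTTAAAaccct
Stfa2l1: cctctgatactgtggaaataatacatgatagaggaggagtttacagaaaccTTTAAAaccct
Gm5483: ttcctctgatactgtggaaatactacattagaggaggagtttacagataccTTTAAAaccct
The plus strand stretches are chr16:36277067-36277128 for Stfa1, chr16:36156727-36156788 for Stfa2l1 and chr16:36184132-36184193 for Gm5483. The minus strand stretches, printed as the gene reads, are chr16:36367569-36367630 for BC100530, chr16:36455413-36455474 for Stfa3 and chr16:36408382-36408443 for Stfa2. RefSeq and GENCODE M21 place some starts differently. The stretches of Stfa1, BC100530 and Stfa2 lie within the GENCODE gene bounds given above, and those of Stfa3, Stfa2l1 and Gm5483 lie upstream of them. AGATAA, the core letters of a GATA factor motif, occurred in the windows of BC100530, Stfa1 and Stfa3 and was found on neither strand of the 300 bases of Stfa2, Stfa2l1 or Gm5483. AGATAA occurred in 11.178% of all promoters on either strand, and both motifs were picked after the windows had been read. Only the letters were compared, and nothing about a factor follows from them.

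All libraries together held 55201 barcodes, of which 50850 (92.1%) passed the limits on UMIs, genes and mitochondrial share. Total UMIs per library ran from 53913865 to 188283327, and the median per kept cell was 5645 to 8854 in 5 libraries and 18263.5 in IMQ+SHP099 replicate 1. Library pairs shared 12 to 30 cell barcodes. Cells were placed in classes by fixed marker genes, with cells of mixed scores left unassigned. Keratinocytes numbered 5927 and 1745 in the Sham libraries, 1247 and 773 in IMQ, as well as 5304 and 430 in IMQ+SHP099. Their median depth was 9693 and 15145 UMIs in Sham and 22067.5 to 34961 in the treated libraries. Gated neutrophils numbered 5 and 10 in Sham, 163 and 319 in IMQ, as well as 10 and 91 in IMQ+SHP099. Krt14 and Retnlg are among the marker genes that set the gates, so their levels describe the gates and do not check them. Levels are given in CPM, the UMIs of a gene per 1000000 UMIs of its class in a library. Krt14 stood at 5838 to 18029 CPM in keratinocytes and at 43.8 to 344 in neutrophils, whereas Retnlg stood at 0 to 1.87 and at 861 to 23749.

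In keratinocytes IMQ skin held far more stefin UMIs than Sham skin. The 6 genes summed to 859 and 803 CPM in the Sham libraries, to 18237 and 14460 in IMQ, and to 21896 and 17466 in IMQ+SHP099, which put them at 1.82% and 1.45% of all keratinocyte UMIs in IMQ skin. The mean in IMQ was 19.7-fold that in Sham.

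BC100530, a stefin gene that carries no trivial name, was the most abundant member in keratinocytes of the treated skin. It had 535 and 344 CPM in Sham, 11856 and 9636 in IMQ, as well as 13835 and 10735 in IMQ+SHP099. No Sham library came near a treated one, and the mean of 10746 ± 1569.5 (SD, n = 2) in IMQ was 24.4-fold that of 439.7 ± 135 (SD, n = 2) in Sham. Stfa1, one of the first described mouse stefins, had 80.7 and 50.3 CPM in Sham, 2996 and 2181 in IMQ, as well as 4093 and 3116 in IMQ+SHP099, a 39.5-fold difference between the means of IMQ and Sham. Stfa3 had 242 and 409 CPM in Sham, 3292 and 2583 in IMQ, as well as 3913 and 3548 in IMQ+SHP099. Its IMQ over Sham fold of 9.03 was the smallest of the 4 members whose fold could be computed, and Stfa3 was the second most abundant in Sham replicate 1 and the most abundant in Sham replicate 2.

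Stfa2 was scarce in keratinocytes of every group, with 0.553 and 0.168 CPM in Sham, 91.8 and 59.8 in IMQ, as well as 54.1 and 66.1 in IMQ+SHP099. Its 210-fold difference between IMQ and Sham was the largest of the 4 that could be computed, started from 48 UMIs over both Sham libraries, and became 451-fold without Sham replicate 1 and 137-fold without Sham replicate 2. Stfa2l1 and Gm5483 were close to absent in keratinocytes. Stfa2l1 had no UMI in Sham and 25 and 3 UMIs in IMQ (0.58 and 0.125 CPM), which makes it at least 12.6-fold higher against a floor of 3 UMIs over the Sham group. Gm5483 had 1 UMI in each Sham library and 21 and 7 in IMQ.

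**Figure D1:**
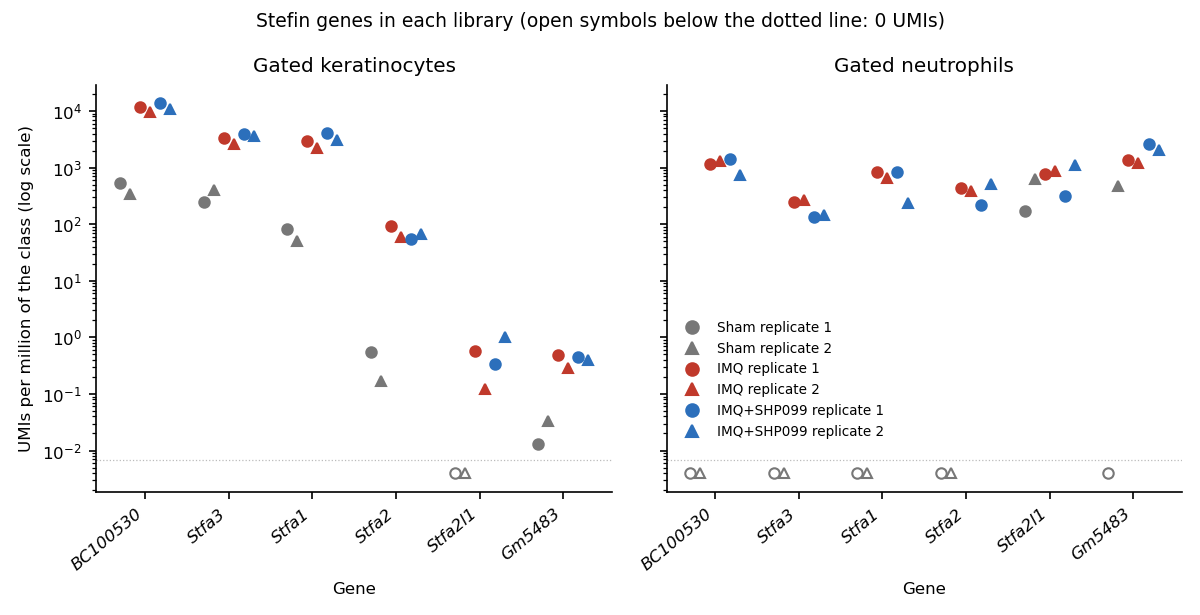
CPM for each of the 6 genes on a log axis, in gated keratinocytes (left) and gated neutrophils (right), with 1 point per library and open symbols for 0 UMIs. BC100530, Stfa3 and Stfa1 are the high genes of treated keratinocytes, between 2181 and 13835, while Stfa2l1 and Gm5483 are at or below 1.01 there and between 311 and 2580.2 in treated neutrophils.

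In the fit of all genes by edgeR's quasi-likelihood method on UMIs summed per library, 6 of 6 members were among those called higher in IMQ than in Sham keratinocytes, beside 5.22% of the 14080 genes, and both IMQ libraries lay above both Sham libraries for 6 of 6, beside 17.7% of all genes. The members were selected on these levels, so neither count is a test of them. Stfa2, Stfa2l1 and Gm5483 also passed the filter on low counts only through the treated libraries. The log2 fold changes were 4.84 ± 0.62 (SE) for BC100530, 5.53 ± 0.61 for Stfa1, 3.51 ± 0.44 for Stfa3, 7.74 ± 0.61 for Stfa2, 7.32 ± 1.65 for Stfa2l1 and 4.41 ± 0.90 for Gm5483. The last 2 rest on few UMIs: leaving out a library brought the number called to between 4 and 5, with Stfa2l1 and Gm5483 the genes that were lost.

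Detection followed the levels. A BC100530 UMI was found in 32.5% and 30.9% of Sham keratinocytes, in 96.8% and 89.1% of IMQ keratinocytes and in 98.4% and 91.4% of those from IMQ+SHP099 skin. In fibroblasts, which are not known to make it, the share was 3.37% and 1.42% in Sham, 33.8% and 19.0% in IMQ, as well as 60.7% and 13.3% in IMQ+SHP099, at a median depth of 5157 to 9248 UMIs. Keratinocytes with at least 1000 UMIs were thinned to 1000 UMIs each, and shallower ones were left out. This left shares of 15.3% and 12.0% in Sham, 90.9% and 78.2% in IMQ, as well as 94.5% and 81.3% in IMQ+SHP099. The difference between Sham and treated keratinocytes was thus present at equal depth. At the same depth Stfa1 was found in 5.52% and 3.08% of Sham and 66.9% and 48.2% of IMQ keratinocytes, and Stfa3 in 11.5% and 17.4% and in 66.7% and 51.6%.

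The median IMQ keratinocyte carried 298 and 168 UMIs of BC100530, and the median Sham keratinocyte 0. In Sham skin the members were held by few cells: the tenth of keratinocytes with most BC100530 UMIs carried 83.7% and 84.3% of them, and this share was 30.8% and 39.1% in IMQ, as well as 27.3% and 35.3% in IMQ+SHP099. Within each treated library the levels of Stfa1, Stfa3 and BC100530 moved together from cell to cell, with Pearson's r of 0.79 to 0.87 between any 2 of them on log-scaled values. In the Sham libraries r was 0.43 to 0.65 over 5927 and 1745 cells. These cells share a library and a gate, and r is given as a description.

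The layers of the epidermis differed as well. Keratinocytes were divided by Krt5, Krt14 and other basal markers, by Krt1, Krt10 and other suprabasal markers, and by Krt79, Krt17 and Defb6 for the upper hair follicle. A granular state, by Lor, Flg2 and Ivl, was scored as well. Its cells and those without a state are not described here. BC100530 reached 17042 and 16536 CPM in suprabasal cells of IMQ skin and 9159 and 6116 in basal cells. In Sham skin it was 1058 and 639 in suprabasal and 307 and 308 in basal cells. The suprabasal level was higher than the basal one in 6 of 6 libraries, by 1.65-fold to 3.45-fold. Stfa1 showed the same order in 6 of 6, by 1.89-fold to 4.42-fold.

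Stfa3 behaved otherwise in untreated skin. It was 204 and 317 CPM in suprabasal and 268 and 650 in basal Sham cells, a ratio of 0.76 and 0.487, whereas in the 4 treated libraries the suprabasal level was 1.58-fold to 2.19-fold the basal one. Among the basal, suprabasal and follicle states, upper hair follicle keratinocytes held the least. BC100530 was at 0.324-fold and 0.632-fold of the basal level in IMQ and Stfa1 at 0.223-fold and 0.482-fold. Cycling keratinocytes, those with at least 3 of 4 cell cycle genes, had less BC100530 than the others in 6 of 6 libraries, by 1.13-fold to 1.54-fold. Stfa3 was again the other way in Sham, where noncycling cells had 0.694-fold and 0.843-fold the level of cycling ones, against 1.05-fold to 1.47-fold in the treated libraries. Within each of the basal, suprabasal and follicle states the treated libraries lay above both Sham libraries for BC100530, Stfa1 and Stfa3.

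**Figure D2:**
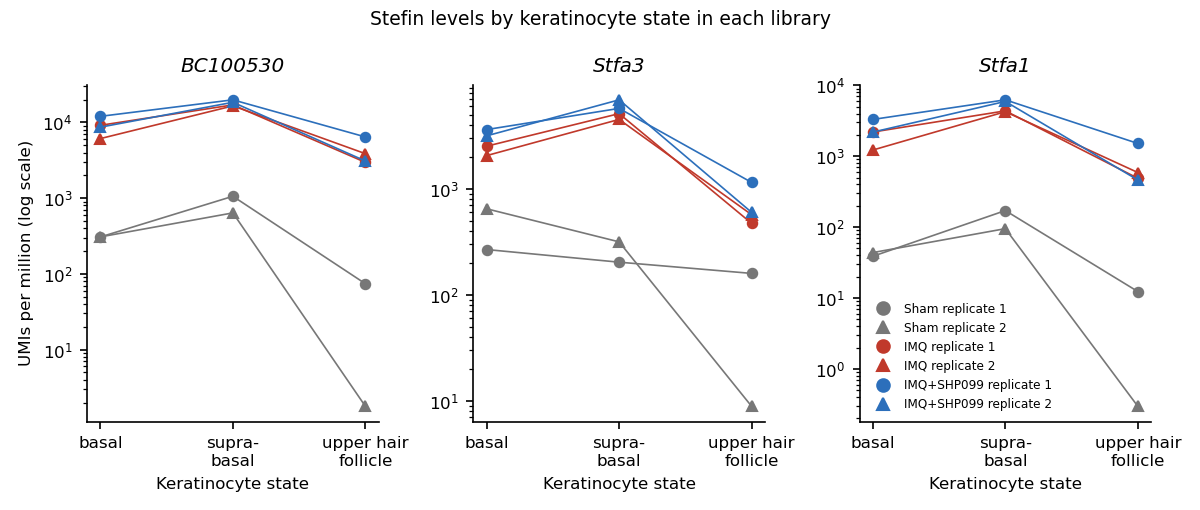
CPM of BC100530, Stfa3 and Stfa1 on log axes in basal, suprabasal and upper hair follicle keratinocytes, with lines joining the states of 1 library. Treated libraries lie above both Sham libraries in every state, and the suprabasal point is above the basal one in 6 of 6 libraries for BC100530 and Stfa1 but only in the 4 treated libraries for Stfa3.

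Between IMQ+SHP099 and IMQ keratinocytes the differences were of the order of their standard errors. Both IMQ+SHP099 libraries lay above both IMQ libraries for Stfa1 (1.39-fold higher in the mean) and Stfa3 (1.27-fold), which is 2 of 6 members, where 9.79% of all genes did the same. BC100530 (1.14-fold), Stfa2 (0.793-fold), Stfa2l1 and Gm5483 overlapped between the groups. The log2 fold changes were 0.62 ± 0.50 (SE) for Stfa1, 0.47 ± 0.40 for Stfa3, 0.33 ± 0.52 for BC100530 and -0.24 ± 0.44 for Stfa2. In the edgeR quasi-likelihood fit 0 of 14080 genes (0%) were called, hence 0 of 6 members, with 345 genes at an unadjusted p under 0.05, and DESeq2 called 11 genes. For the members this count is a description. Standard errors of this size leave room for a moderate difference either way. IMQ+SHP099 replicate 1, the deepest library and the treated one with most keratinocytes, was the higher of its group for Stfa1, Stfa3 and BC100530, and the other library was still above both IMQ libraries for Stfa1 and Stfa3.

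The order of the members was another one in neutrophils. Gm5483 and Stfa2l1 were near 0 in keratinocytes, whereas in neutrophils of the 4 treated libraries Gm5483 ranked 1 or 2 among the 6 members and Stfa2l1 ranked 2 to 4. Gm5483 had 1347 and 1225 CPM in IMQ, as well as 2580.2 and 2027 in IMQ+SHP099. Stfa2l1 had 776 and 883 in IMQ, as well as 311 and 1113 in IMQ+SHP099. Relative to keratinocytes of the same library the Gm5483 level was 2765-fold and 4216-fold higher in IMQ neutrophils, and that of Stfa2l1 was 1338-fold higher in IMQ replicate 1.

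Stfa2 was also higher in neutrophils, with 431 and 391 CPM in IMQ, as well as 222 and 516 in IMQ+SHP099, which is 4.11-fold to 7.81-fold its keratinocyte level in the 4 treated libraries. The other members were lower than in keratinocytes but present. BC100530 had 1175 and 1307 in IMQ, as well as 1424 and 729 in IMQ+SHP099, Stfa1 had 820.4 and 661 and then 845 and 241, and Stfa3 had 248 and 268 and then 133 and 147. The lowest value of 3 of these 6 genes came from the 10 neutrophils of IMQ+SHP099 replicate 1, where Stfa3 rests on 3 UMIs and Stfa2 on 5.

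Together the members took 0.474% to 0.552% of neutrophil UMIs in the treated libraries. Sham skin held too few neutrophils to say more: their 5807 and 12541 UMIs contained Stfa2l1 (1 and 8 UMIs) and Gm5483 (0 and 6), and none of the other 4, for which the floor of 3 UMIs lay at 517 and 239 CPM. At 172 (95% exact Poisson interval 4.36 to 959) and 638 (275 to 1257) CPM, Stfa2l1 in Sham neutrophils had intervals that took in both IMQ levels. These intervals and limits cover counting error only.

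Because treated keratinocytes were rich in stefins, keratinocyte RNA among the neutrophils was measured. Krt14 stood at 0.678% and 0.392% of its keratinocyte level in IMQ neutrophils, whereas BC100530 stood at 9.91% and 13.6%, Stfa3 at 7.54% and 10.4% and Stfa1 at 27.4% and 30.3%. Among IMQ neutrophils without a single UMI of 7 keratins (61 of 163 and 199 of 319 cells) BC100530 was at 1548 and 1476 CPM and Stfa1 at 935 and 674, no lower than in all gated neutrophils, whereas Stfa3 was at 196 and 285, beside 248 and 268 in all of them. In IMQ+SHP099 replicate 2 (71 of 91 cells) the 3 genes were at 788, 254 and 139.5 in that order, and in replicate 1 only 2 such cells were left. Conversely, keratinocytes without a UMI of 7 neutrophil genes held 10898 and 8637 CPM of BC100530 in IMQ, beside 11856 and 9636 in all cells. In Sham this subset kept 2991 of 5927 and 1050 of 1745 keratinocytes. Stfa3 was at 165 and 206 CPM there, beside 242 and 409 in all Sham keratinocytes. Stfa1 and BC100530 were higher in the subset than in all keratinocytes in Sham replicate 1 and lower in replicate 2. Whether the 7 genes mark neutrophil RNA in Sham keratinocytes was not tested. Both subsets were added after the data had been seen.

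**Figure D3:**
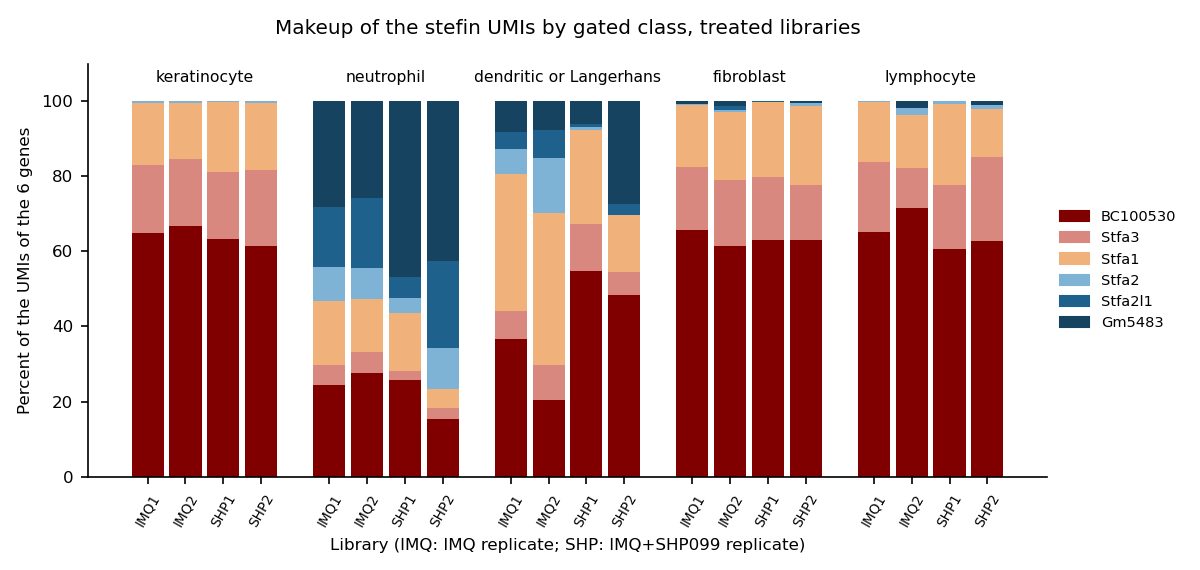
Share of each gene in the UMIs of the 6 genes, as stacked bars from 0 to 100 percent, for 5 gated classes in the 4 treated libraries. Keratinocytes, fibroblasts and lymphocytes share a makeup led by BC100530 at 60.6% to 71.4%, while in neutrophils Gm5483 takes 25.9% to 46.8% and BC100530 15.3% to 27.6%.

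Expression was uneven among neutrophils. A Stfa2l1 UMI was found in 54.0% and 61.1% of IMQ neutrophils, Gm5483 in 45.4% and 46.1%, Stfa2 in 25.8% and 26.0% and Stfa1 in 29.4% and 19.1%, at median depths of 4343 and 4249 UMIs. In fibroblasts of the same libraries Stfa2l1 was found in 0.0591% and 0.251% of cells and Gm5483 in 0.148% and 0.301%. The tenth of neutrophils with most UMIs of the gene carried 47.1% and 41.9% of the Stfa2l1 UMIs and 86.3% and 96.1% of those of Stfa1. Stfa2l1 and Gm5483 went together from cell to cell, with Pearson's r of 0.60 and 0.44 in the IMQ libraries and 0.55 in IMQ+SHP099 replicate 2, and Stfa2 went with Gm5483 at 0.57 and 0.37. Other pairs reached like values, so these do not stand apart. In the IMQ libraries Stfa2 went with Stfa3 at 0.49 and 0.61 and with BC100530 at 0.51 and 0.56. These values are descriptions over sparse counts.

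Between IMQ+SHP099 and IMQ neutrophils 0 of 3800 genes (0%) were called in the edgeR quasi-likelihood fit, hence 0 of 6 members, with 197 genes at an unadjusted p under 0.05, and DESeq2 called none of the 3800. Here too the count is a description of the members. Gm5483 was higher in both IMQ+SHP099 libraries (1.79-fold in the mean), as were 15.4% of all genes, and Stfa3 was lower in both (0.544-fold), as were 21.6%. The log2 fold changes were 0.60 ± 0.44 (SE) for Gm5483, -0.12 ± 0.47 for Stfa2l1, -0.02 ± 0.43 for Stfa2, -1.03 ± 0.46 for Stfa1, -0.55 ± 0.44 for BC100530 and -0.89 ± 0.41 for Stfa3. Without IMQ+SHP099 replicate 2, the 10 cells of replicate 1 stand for the group. The median log2 fold change over all genes was then -1.48, so nothing about a member is read from that fit.

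Fibroblasts and lymphocytes held the members at low levels and with a makeup like that of keratinocytes. In fibroblasts BC100530 had 9.16 and 1.51 CPM in Sham, 44.3 and 26.1 in IMQ, as well as 148 and 23.7 in IMQ+SHP099. These levels were 0.221% to 1.07% of the keratinocyte level in the treated libraries, next to 0.245% to 1.3% for Krt14. In lymphocytes BC100530 was at 0.47% to 3.12% and Krt14 at 0.494% to 3.47%. IMQ+SHP099 replicate 1 was the highest library in both, for the stefin and for the keratin alike.

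The levels of fibroblasts and macrophages had no part in choosing the genes, and fits were run on them. Whether these levels are keratinocyte RNA was not tested, so the fits are not taken as independent of the keratinocyte levels. In fibroblasts 4 members passed the filter on low counts and 0 of the 4 were called between IMQ and Sham by edgeR's quasi-likelihood test, beside 0.423% of 14661 genes. Stfa1 had a log2 fold change of 5.02 ± 1.07 (SE, adjusted p = 0.109), Gm5483 of 6.91 ± 1.38 (adjusted p = 0.111), BC100530 of 2.87 ± 1.15 (adjusted p = 0.385) and Stfa3 of 1.06 ± 1.02 (adjusted p = 0.851). Gm5483 had no UMI in Sham fibroblasts and 14 and 35 in IMQ. It passed the filter only through treated libraries, so its values are a description. Stfa1 had 3 and 9 UMIs in Sham fibroblasts. Stfa1 also passed the filter only through treated libraries, and its values are a description as well. Of the 4 members, 3 had an unadjusted p under 0.05, beside 1698 of the 14661 genes. DESeq2 called Stfa1, and it called 666 of the 14661 genes in all. In macrophages BC100530 alone passed the filter and was not called, with a log2 fold change of 3.96 ± 1.55 (SE, adjusted p = 0.142), beside 8.85% of 6769 genes. BC100530 had no UMI in Sham replicate 1 and 2 UMIs in Sham replicate 2. It too passed only through treated libraries, so its values are a description. Its level was 0 and 3.56 CPM in Sham, 59.6 and 28.6 in IMQ, as well as 203 and 18.9 in IMQ+SHP099. Krt14 in macrophages was 0.146% to 1.56% of its keratinocyte level over the treated libraries, and BC100530 0.176% to 1.47%, and the part of keratinocyte RNA in these values was not tested.

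In cells gated as dendritic or Langerhans cells, the antigen-presenting cells of skin, Stfa1 took a larger share of the stefin UMIs than in keratinocytes in 3 of the 4 treated libraries. Stfa1 had no UMI in Sham, 157 and 48 UMIs in IMQ (89.5 and 39.0 CPM) and 74 and 5 in IMQ+SHP099 (62.5 and 13.7), and made up 36.4% and 40.7% of the stefin UMIs in IMQ against 16.4% and 15.1% in keratinocytes. In IMQ+SHP099 the share was 25.0% and 15.2%, against 18.7% and 17.8%. It stood at 2.99% and 1.79% of the keratinocyte level in IMQ, where Krt14 stood at 0.358% and 0.209%, and at 1.53% and 0.438% in IMQ+SHP099, where Krt14 stood at 1.21% and 0.278%. Gm5483 had 35 and 9 UMIs there in IMQ. These are 108 and 107 cells in the IMQ libraries, and their levels were not tested.

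**Figure D4:**
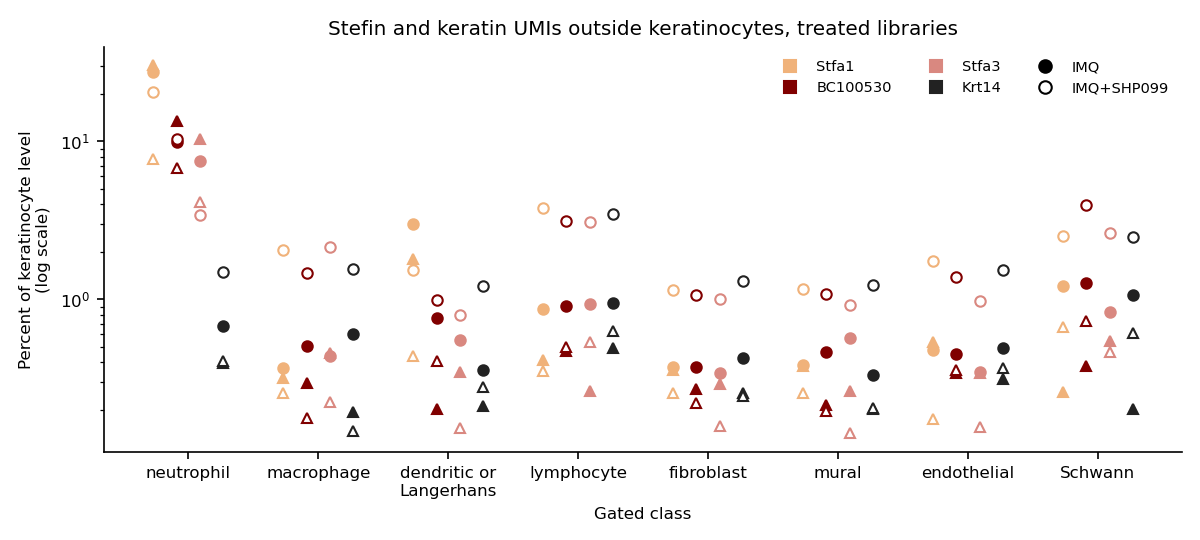
Level of Stfa1, BC100530, Stfa3 and Krt14 in 8 gated classes as a percent of the keratinocyte level of the same library, on a log axis, with 1 point per treated library. In neutrophils the stefins lie at 3.41% to 30.3% and Krt14 at 0.392% to 1.48%; in fibroblasts all 4 genes lie between 0.157% and 1.3%.

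The other genes of the protease and inhibitor system were taken as whole lists: 5 further stefins, the other cystatins and the cysteine cathepsins. Of the 19 that passed the filter in keratinocytes, 7 rose and 1 fell from Sham to IMQ at an adjusted p under 0.05 (edgeR's quasi-likelihood test, adjusted over all 14080 genes), where 5.22% of all genes were called higher and 7.71% lower. The median over all genes was -0.09 on the log2 scale. Of the further stefins 4 of 5 rose, and these 4 are genes of the same cluster. Gm5416 and 2010005H15Rik passed the filter only through the treated libraries, so their part in both counts is a description. Gm5416 had 0.0643 and 0 CPM in Sham, 183 and 118 in IMQ, as well as 180 and 270 in IMQ+SHP099, with a log2 fold change of 11.84 ± 0.70 (SE, adjusted p = 0.00015) against Sham. It had 5 and 0 UMIs in the Sham libraries and passed the filter only through the treated ones, so its values are a description. Csta1, which sits at the cluster's edge, had 39.6 and 29.2 in Sham, 322 and 268 in IMQ, as well as 308 and 492 in IMQ+SHP099 (3.34 ± 0.41, adjusted p = 0.00194). BC117090 (5.54 ± 0.43, adjusted p = 0.000358) and 2010005H15Rik (5.65 ± 0.69, adjusted p = 0.00199) were at most 36.0 CPM in any library. In Sham 2010005H15Rik rested on 8 and 9 UMIs, so its values are a description too. As near copies of members, BC117090 of BC100530 at 95.2% and 2010005H15Rik of Gm5483 at 96.9% of coding bases, they may hold reads of those genes.

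Cstb, the intracellular inhibitor of the B branch encoded elsewhere in the genome, was abundant in all groups. It had 666 and 564 CPM in Sham, 1362 and 1283 in IMQ, as well as 900 and 1417 in IMQ+SHP099, and its log2 fold change of 1.36 ± 0.38 (adjusted p = 0.052) did not pass in edgeR, while DESeq2 called it, and edgeR without Sham replicate 1 did so too. In Sham keratinocytes Cstb alone was of the same order as the 6 members summed, and in IMQ it was far below them. The secreted cystatins Cst3 (-1.03 ± 0.47, adjusted p = 0.181) and Cst6 (0.38 ± 0.44, adjusted p = 0.598) were not called. Fetub, a plasma protein of the cystatin superfamily, rose by 3.30 ± 0.44 (adjusted p = 0.00285) at 0.45 and 1.21 CPM in Sham and 5.27 and 7.18 in IMQ.

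Among the cysteine cathepsins, the proteases that stefins inhibit, 2 rose and 1 fell. Ctsc, which activates the serine proteases of neutrophils, rose from 33.1 and 108 to 285 and 326 CPM (log2 fold change 2.51 ± 0.42, adjusted p = 0.0077). Ctsk, a collagen-degrading cathepsin, rose from 1.24 and 4.24 to 10.7 and 8.97 (2.27 ± 0.43, adjusted p = 0.0125), and Ctso fell from 7.60 and 4.47 to 1.55 and 1.50 (-1.77 ± 0.48, adjusted p = 0.047), a call that was lost with RLE size factors, with Leiden clusters, with only the compared groups and in 5 of the 6 fits without a library. The lysosomal proteases Ctsl (1.17 ± 0.37, adjusted p = 0.0741), Ctsb (0.28 ± 0.37, adjusted p = 0.651), Ctss (0.23 ± 0.63, adjusted p = 0.832) and legumain, Lgmn (0.71 ± 0.39, adjusted p = 0.254), were not called. Between IMQ+SHP099 and IMQ keratinocytes 0 of these 19 genes were called by edgeR's quasi-likelihood test or by DESeq2, and 0 had an unadjusted p under 0.05.

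**Figure D5:**
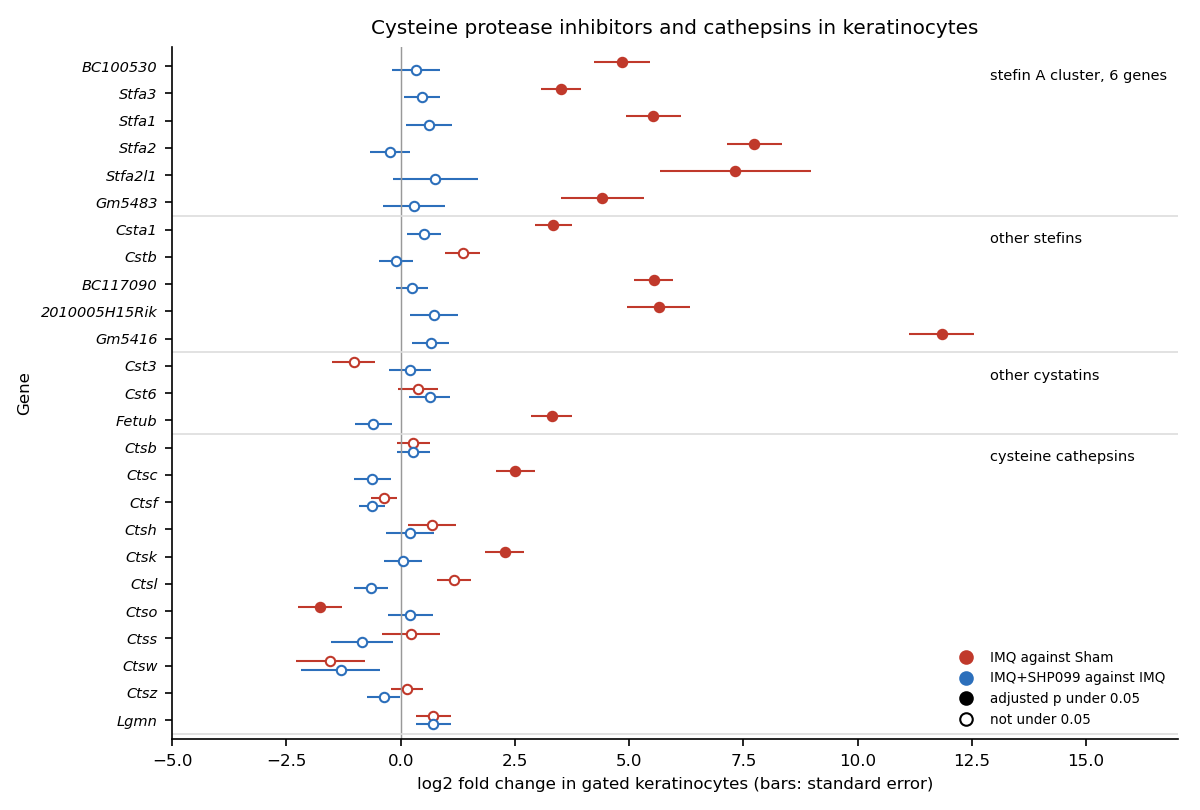
Log2 fold change with its standard error (bars) in gated keratinocytes for the 6 members, the further stefins, other cystatins and cysteine cathepsins, IMQ against Sham in red and IMQ+SHP099 against IMQ in blue, filled where the adjusted p is under 0.05. Stefins of the cluster lie between 3.34 and 11.84 for IMQ against Sham, and no blue point is filled.

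Genes that build and crosslink the cornified envelope, in which stefin A is a known component, were tested as a further list. Of the 9 that passed the filter 3 rose and 1 fell in IMQ keratinocytes by edgeR's quasi-likelihood test, beside 5.22% and 7.71% of all genes. Sprr1b, an envelope precursor, rose by 4.43 ± 0.51 on the log2 scale (SE, adjusted p = 0.00161), the transglutaminase Tgm1 by 2.48 ± 0.29 (adjusted p = 0.0016) and the transglutaminase Tgm3 by 2.77 ± 0.39 (adjusted p = 0.00369). Lor, the main envelope protein of the terminal layer, fell by 6.04 ± 0.56 (adjusted p = 0.000801), from 157 and 104 CPM in Sham to 2.09 and 1.20 in IMQ. Ppl, the envelope plakin periplakin, picked out after its values were seen, had a log2 fold change of -0.99 ± 0.28 (adjusted p = 0.0509), and was called lower in 6 of the other fits, among them that without Sham replicate 2 (adjusted p = 0.0371). Krt10, a keratin of the suprabasal layers, stood at 6883 and 8262 in Sham and 1927 and 1033 in IMQ.

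The genes with the pattern most like the members were sought over 56 sums of a class in a library, among 9055 genes. The highest Pearson's r with the summed members, on log2 CPM plus 1, were those of Krt6a (0.876), S100a9 (0.873), Krt6b (0.856), Krt16 (0.851) and S100a8 (0.849). Krt6a, Krt6b and Krt16 are the keratins of wounded and hyperproliferative epidermis, and S100a8 and S100a9 form calprotectin. In keratinocytes S100a8 went from 1.63 and 1.18 CPM in Sham to 15877 and 12764 in IMQ, and in IMQ neutrophils it stood at 105984 and 138814. The sums share libraries and depth, so r is a description and carries no p.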

How the data were processed

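Single-cell 3′ RNA-seq of 6 pooled skin libraries was analysed. The deposited values are UMI counts per gene and barcode, made by the authors with Cell Ranger against mm10 (GRCm38), without normalization. A UMI stands for a transcript molecule, so levels were not scaled by gene length. Barcodes with fewer than 100000 UMIs, fewer than 6500 genes and under 10% mitochondrial UMIs were kept. No doublet caller was run, and cells whose second class score exceeded 0.5 of the best, or whose best was under 0.2, stayed unassigned. These score limits were set with the files at hand. The score was the mean over 95 marker genes in 13 lists of log-scaled UMIs divided by the gene's 90th percentile over cells with a UMI and capped at the value 1. UMIs were summed per library and class and given as CPM (per 1000000 UMIs of the class), and tested with edgeR 4.0.16 (R 4.3.3; TMM, filterByExpr, quasi-likelihood F test, Benjamini-Hochberg, adjusted p under 0.05) with all 6 libraries in the fit, or the 4 treated ones for neutrophils. The SE is the log2 fold change divided by the root of F. Leiden clustering in scanpy 1.11.5 (resolution 0.8, members left out) and DESeq2 1.42.0 served as alternatives. The edgeR fit was also run on simulated keratinocyte and fibroblast sums of all 6 libraries. The neutrophil and macrophage fits were not simulated. Members and gene lists were chosen with earlier results of these data known. Genes named are the members, the family and envelope genes that passed, Cstb, Cst3, Cst6, Ctsb, Ctsl, Ctss and Lgmn, reference markers, and the 5 genes most like the members. Total UMIs per library, 53913865 to 188283327, set the counting precision, and 2 libraries per group set the replicate error.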

Additional observations from a re-analysis of the deposited data

Results flagged for a closer look

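Cells that no gate took held many stefin UMIs in the treated libraries, data that no comparison above uses. The 6 genes summed to 3992 and 2551 CPM in unassigned cells of the IMQ libraries and to 14491 and 1279.9 in those of IMQ+SHP099, against 373 and 136 in Sham. Krt14 stood at 20.6%, 13.5%, 56.1% and 9.09% of its keratinocyte level in the same treated cells, and BC100530 at 22.5%, 16.9%, 66.9% and 7.41%. BC100530 made up 62.1% to 66.9% of the stefin UMIs there, as in keratinocytes. These cells numbered 1071, 1495, 658 and 1002, and the part of keratinocytes or doublets among them was not tested.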

How the results depend on the processing

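Of the recounts of calls under another setting, 78 stayed within 1.5 times the reported count and 10 did not, and no direction was reversed. In keratinocytes leaving out a library gave 4 to 5 members called for IMQ against Sham, 7 to 9 of the other family genes, and 0 for both in IMQ+SHP099 against IMQ. In neutrophils the count was 0 to 1, the 1 being Stfa2l1 without IMQ+SHP099 replicate 2. In fibroblasts, where 0 members were called, DESeq2 called 1, the fit without a filter 5 of 6 tested, and the fit with the replicate block 2. In macrophages, also 0, the fit without a filter called 2, Leiden clusters 1, the 2 compared groups alone 2, and leaving out a library 0 to 2. Same-numbered keratinocyte libraries had deviations that correlated at 0.13, 0.21 and 0.05, so the numbers were not taken as pairs; with the replicate block 6 members and 10 other family genes were called in keratinocytes. Averaged over cells, the 6 genes summed to 719 CPM in Sham keratinocytes (831 from summed UMIs) and to 4967 in IMQ neutrophils (4767), which the stricter gate put at 5142. Over all genes the 1820 calls for IMQ against Sham keratinocytes became 2758 with DESeq2, 2998 without a filter and 560 and 753 without IMQ replicates 1 and 2, and the 0 calls for IMQ+SHP099 against IMQ became 11 with DESeq2 and 135 without a filter. Among neutrophils 0 became 7 without a filter, 5 with the replicate block, 36 with Leiden clusters and 103 without IMQ+SHP099 replicate 2. In fibroblasts 62 became 666 with DESeq2, 1327 without a filter, 199 with the replicate block, 171 with Leiden clusters, 4 with the 2 groups alone and 0 to 383 without a library. In macrophages 599 became 200, 1184, 327, 210 and 1071 under the same settings and 1 to 1160 without a library. Cstb and Ctsl, not called in keratinocytes, passed in edgeR without Sham replicate 1 (adjusted p = 0.0266 and 0.0163), without a filter and with the replicate block, and Cst3 passed without Sham replicate 2 (adjusted p = 0.0186). Subsets without keratin or without neutrophil gene UMIs, and folds without a library, were chosen after seeing the data. Thinning lowered 57 of 60 detection shares. With 1 library left in a group, that library is assumed to vary like the others. The causes were not tested. Few neutrophils in Sham and in IMQ+SHP099 replicate 1 limit what their levels can show.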
